A study of Mus musculus with 9 samples.

Results

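Tau, the product of Mapt, and 9 genes of proteins that work beside it or act on it were followed one by one through 9 arrays of mouse brain RNA. The 10 genes, 10 of 19938 with a single gene symbol on the array, were taken by name: Mapt, Map2, Map1b, Gsk3a, Gsk3b, Cdk5, Cdk5r1, Dyrk1a, Mark1 and Ppp2ca. Tau binds along microtubules of axons, and it leaves them as kinases add phosphate to it. In Alzheimer's disease, heavily phosphorylated tau builds the tangles inside neurons. Glycogen synthase kinase, Cdk5 with its activators and the microtubule affinity regulating kinases are the kinases most often studied in this setting. Protein phosphatase 2A takes the phosphate off again. The arrays measured mRNA, so neither tau phosphorylation nor the splice forms of tau were measured.

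The control group held wild type C57/6J mice given saline, described in the methods as matched in age. The model group held APP/PS1 mice given saline, a strain in which transgenes for the amyloid precursor and for presenilin lead to plaques. The HPYD group held APP/PS1 mice given HPYD, a peptide designed to break β-sheets, at 33 mg/mL. All doses went through the nose at 5 µL per day for 30 days, and the purchase age of the transgenic mice was 8 months. Which promoter drives the transgenes is not stated in the labels or methods. Brain tissue of each group was read on 3 GeneChip Mouse Gene 1.0 ST arrays, and the values are log2 signals. They are compared only within a gene, since probe sets of different genes differ in brightness. Nothing in the labels says that each array was a separate mouse, so p-values reflect only how much these samples varied, which could be technical variation.

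Some arrays stood apart, and the values of genes that rest on them are given with and without them where they move most. The array labelled HPYD 3 had App at 12.53, beside 12.56 to 12.62 in the control arrays and 12.95 to 13.02 in the other APP/PS1 arrays, and so did not carry the transgene signal of its label. Prnp was 11.52 there, against 11.76 to 11.81 and 12.42 to 12.55. Xist, the RNA of the inactive X chromosome, was between 5.20 and 5.69 in the control arrays and in HPYD 3, and between 11.18 and 11.78 in the other 5 arrays. Model against control and sex therefore cannot be told apart, and the same holds for HPYD 1 and HPYD 2 against control. In HPYD against model, HPYD 3 was the only array with low Xist. Kdm5d, on the Y chromosome, ran the other way, at 7.62 to 7.84 and at 4.51 to 5.23. Model 2 and HPYD 3 had a median level of 6 cerebellar granule neuron markers 2.63 and 2.62 above the control mean, against -0.04 to 0.36 in the other arrays, and a median of 4 cortex and hippocampus markers at -1.05 and -1.17 relative to that mean. Gabra6, which defines granule neurons, was 11.35 and 11.29 in those arrays. It was 4.85 to 6.14 in the control arrays, 7.51 and 7.81 in Model 1 and Model 3, and 4.54 and 8.20 in HPYD 1 and HPYD 2. The mean level of the 6 granule neuron markers was 7.23 to 7.48 in the control arrays, 8.05 to 10.49 in the model arrays and 7.25 to 10.61 in the HPYD arrays. Skeletal muscle markers were raised in Model 1, Model 2 and HPYD 2, with list medians 2.24, 3.92 and 0.81 above the control mean. Leaving out those arrays leaves Model 3 alone in the model group. The median of 4 striatal markers was at -1.67 to -1.37 relative to the control mean in Model 1, Model 2, HPYD 2 and HPYD 3, and between -0.20 and 0.21 in the rest. All arrays had brain neuron markers, among them Snap25 between 13.08 and 13.27. In such bulk tissue, fewer cells of a type and less RNA per cell cannot be told apart.

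Sequence upstream of the genes is shown for 4 genes. Map2 and Mark1 were both lowest in Model 2 and HPYD 3, but had a Pearson r of only 0.15 over the other 7 arrays. Gsk3b and Ppp2ca were highest in HPYD 1 and low in HPYD 2 and HPYD 3. The windows come from RefSeq on GRCm38.p6 and run from 250 bases before to 50 bases after a transcription start, on the gene's own strand, and 7 of the 10 genes matched an entry. No window is shown for Mapt, Cdk5 and Cdk5r1, which were not matched in the table used here. Capitals mark the GC box GGGCGG, the CCAAT box CCAAT, the cAMP response element TGACGTCA and the TATA box TATAAA, on either strand.
Map2 (chr1:66175079-66175378, plus strand): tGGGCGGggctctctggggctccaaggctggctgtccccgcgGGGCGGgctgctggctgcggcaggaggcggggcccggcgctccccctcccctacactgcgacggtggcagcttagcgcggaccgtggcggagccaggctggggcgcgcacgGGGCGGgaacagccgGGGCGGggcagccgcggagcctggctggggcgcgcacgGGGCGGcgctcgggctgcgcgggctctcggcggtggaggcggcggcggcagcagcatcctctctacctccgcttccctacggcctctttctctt
Mark1, start nearer the gene (chr1:184999500-184999799, minus strand): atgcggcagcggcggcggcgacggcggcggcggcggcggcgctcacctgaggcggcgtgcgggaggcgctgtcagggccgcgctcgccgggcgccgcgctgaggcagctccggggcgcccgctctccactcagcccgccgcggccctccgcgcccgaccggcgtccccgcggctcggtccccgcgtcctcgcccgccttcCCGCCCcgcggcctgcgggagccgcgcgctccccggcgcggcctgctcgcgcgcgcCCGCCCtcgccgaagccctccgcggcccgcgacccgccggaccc
Mark1, start farther upstream (chr1:184999905-185000204, minus strand): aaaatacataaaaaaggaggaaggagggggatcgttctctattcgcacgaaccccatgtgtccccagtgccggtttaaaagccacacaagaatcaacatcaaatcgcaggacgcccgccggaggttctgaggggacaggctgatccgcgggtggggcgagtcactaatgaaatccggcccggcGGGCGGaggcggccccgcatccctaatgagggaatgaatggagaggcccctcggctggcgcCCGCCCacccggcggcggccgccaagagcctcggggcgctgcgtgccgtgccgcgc
Gsk3b (chr16:38088751-38089050, plus strand): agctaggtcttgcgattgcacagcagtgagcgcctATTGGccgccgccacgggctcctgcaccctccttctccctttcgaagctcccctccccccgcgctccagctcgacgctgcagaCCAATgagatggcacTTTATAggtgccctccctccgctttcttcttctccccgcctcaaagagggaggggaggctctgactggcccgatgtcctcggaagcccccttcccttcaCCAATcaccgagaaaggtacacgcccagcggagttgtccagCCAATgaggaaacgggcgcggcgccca
Ppp2ca (chr11:52098574-52098873, plus strand): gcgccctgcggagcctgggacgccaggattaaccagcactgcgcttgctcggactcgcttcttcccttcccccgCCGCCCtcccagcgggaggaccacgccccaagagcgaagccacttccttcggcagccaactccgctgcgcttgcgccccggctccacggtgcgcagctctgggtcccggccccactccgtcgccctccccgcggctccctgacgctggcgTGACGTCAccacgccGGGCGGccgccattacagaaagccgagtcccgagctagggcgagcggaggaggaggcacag
The Map2 window held 5 GC boxes and no CCAAT box, and each Mark1 window held 2 GC boxes. The Gsk3b window held 4 CCAAT boxes, 1 TATA box and no GC box. The Ppp2ca window was the only one of the 10 windows of these genes with a cAMP response element, and it also held 2 GC boxes. Of 32851 windows of the same length, 35.7% held a GC box, 37.4% a CCAAT box, 1.79% a cAMP response element and 13.6% a TATA box. The GC content was 77.7% for Map2, 85.7% and 64.0% for Mark1, 63.0% for Gsk3b and 71.7% for Ppp2ca, with a median of 52.7% over all windows. These matches describe the letters of the windows and were not set against binding data.

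**Figure D1:**
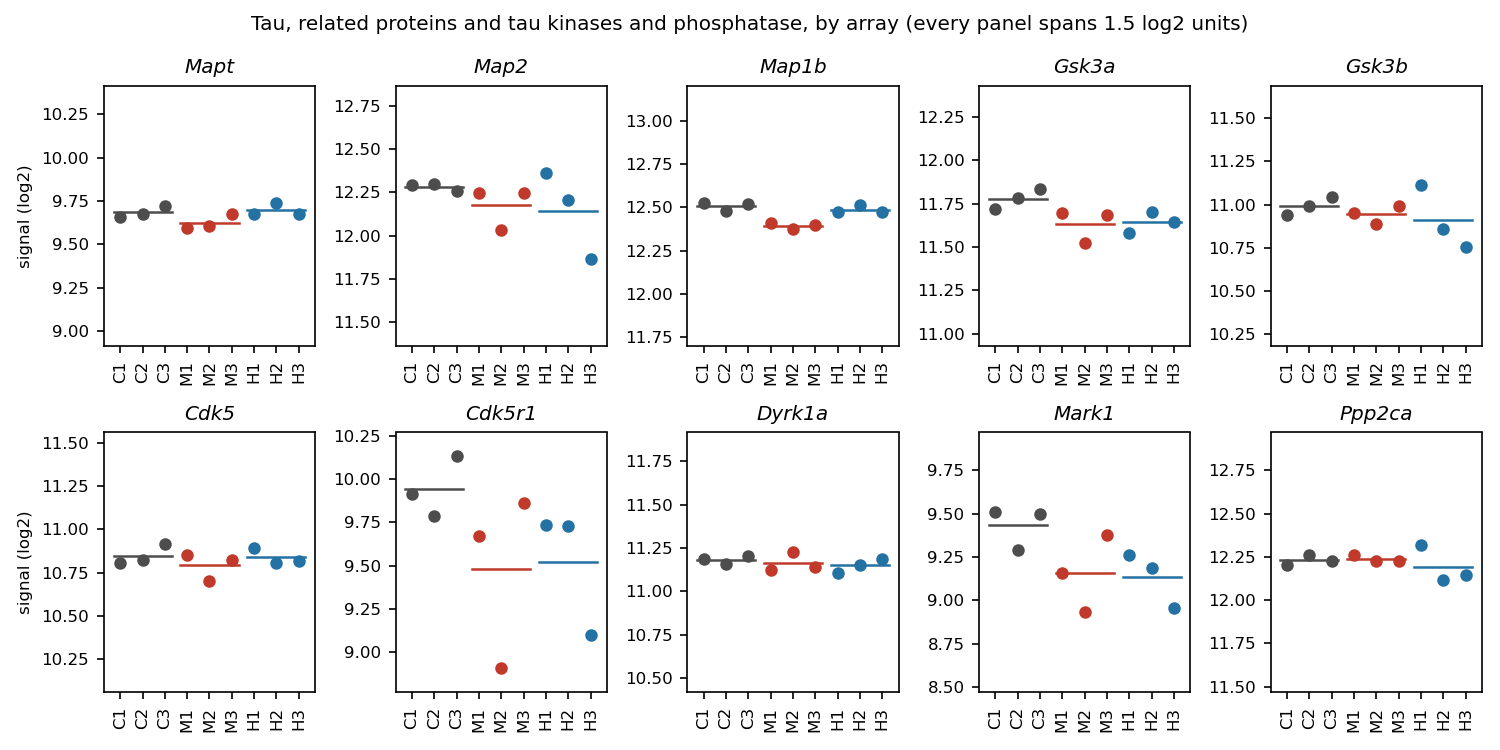
Log2 signal of each of the 10 genes (vertical axis, every panel spanning 1.5 log2 units) in the control (C1 to C3), model (M1 to M3) and HPYD (H1 to H3) arrays. Points are single arrays and lines are group means. Mapt lies between 9.59 and 9.74 in all arrays, while Cdk5r1 runs from 8.91 to 10.13 and is lowest in M2 and H3.

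To ask whether the mRNA of tau itself differed between the groups, Mapt was read first. Mapt was 9.66, 9.68 and 9.72 in the control arrays, 9.59, 9.61 and 9.68 in the model arrays, and 9.68, 9.74 and 9.68 in the HPYD arrays. The 3 groups overlapped, and their whole range was narrower than that of every other gene of the set except Dyrk1a. Model against control gave a log2 fold change of -0.06 (95% interval -0.18 to 0.06 from limma), 0.07 for HPYD against model (-0.05 to 0.19) and 0.01 for HPYD against control (-0.11 to 0.13).

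Map1b and Map2 also bind microtubules, Map1b in growing axons and Map2, a relative of tau, mostly in dendrites. Map1b was 12.52, 12.48 and 12.52 in the control arrays, 12.41, 12.38 and 12.40 in the model arrays, and 12.47, 12.51 and 12.47 in the HPYD arrays. The 3 model arrays lay below all control and all HPYD arrays, and this was the only gene of the set with both patterns. With all arrays shifted to the same median, the model and HPYD arrays overlapped. Both comparisons share the model arrays. Its log2 fold change in model against control was -0.11 (standard error 0.05, 95% interval -0.22 to -0.0038), or 0.925 times the control level, with an unadjusted p of 0.0442 and an adjusted p of 0.859 from limma. For HPYD against model it was 0.09 (standard error 0.05, interval -0.02 to 0.20, adjusted p = 1), and for HPYD against control -0.02 (-0.13 to 0.09). For both patterns the exact two-sided permutation p was 0.1, the smallest that 3 arrays against 3 allow. Without HPYD 3 the unadjusted p for model against control was 0.0525, and without Model 2 and HPYD 3 it was 0.0946 at a log2 fold change of -0.10.

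Map2 was 12.29, 12.30 and 12.26 in the control arrays, 12.24, 12.03 and 12.24 in the model arrays, and 12.36, 12.21 and 11.86 in the HPYD arrays. The model arrays lay just below the control arrays, and Model 2 and HPYD 3 were lower than the rest. Its log2 fold change was -0.11 in model against control (interval -0.39 to 0.18), -0.03 for HPYD against model (-0.31 to 0.25) and -0.14 for HPYD against control (-0.42 to 0.15). Without Model 2 and HPYD 3 the same values were -0.04, 0.04 and 0.0028, and without HPYD 3 alone HPYD against model was 0.11.

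The kinases that phosphorylate tau came next, beginning with the pair of glycogen synthase kinases. Gsk3a was 11.72, 11.79 and 11.83 in the control arrays, 11.69, 11.525 and 11.68 in the model arrays, and 11.58, 11.70 and 11.64 in the HPYD arrays. The 3 model arrays and the 3 arrays labelled HPYD lay below the 3 control arrays, HPYD 2 only narrowly. Gsk3a had a log2 fold change of -0.14 in model against control (interval -0.30 to 0.01) and -0.14 for HPYD against control (-0.29 to 0.02), with adjusted p of 0.859 and 0.860 from limma. HPYD against model gave 0.01 (-0.15 to 0.17). Without Model 2 and HPYD 3 the fold changes against control were -0.09 and -0.14.

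Gsk3b, the form most often tied to tau, was 10.94, 10.99 and 11.04 in the control arrays, 10.95, 10.89 and 10.99 in the model arrays, and 11.11, 10.86 and 10.76 in the HPYD arrays. The HPYD arrays held both the highest and the lowest value, so their spread (SD 0.18) was wider than that of the control (0.05) and model (0.05) arrays. Between groups, log2 fold changes were -0.05 in model against control (-0.26 to 0.16), -0.04 for HPYD against model (-0.25 to 0.17) and -0.08 for HPYD against control (-0.29 to 0.13). Without Model 2 and HPYD 3 they were -0.02, 0.01 and -0.0062.

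Cdk5, which is inactive without an activator, and Cdk5r1, one of its activators, were read side by side. Cdk5 was 10.81, 10.82 and 10.91 in the control arrays, 10.85, 10.71 and 10.82 in the model arrays, and 10.89, 10.81 and 10.82 in the HPYD arrays, and the groups overlapped. Its log2 fold changes lay between -0.06 and 0.05 in the 3 comparisons, with intervals within -0.20 and 0.19. Cdk5r1 was 9.91, 9.79 and 10.13 in the control arrays, 9.67, 8.91 and 9.86 in the model arrays, and 9.73, 9.73 and 9.10 in the HPYD arrays. Model 2 and HPYD 3 lay at -1.04 and -0.84 relative to the control mean, below the other 7 arrays, which ran from 9.67 to 10.13.

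Against control, Cdk5r1 had the largest mean differences of the set, and its intervals were the widest in all 3 comparisons. Model against control gave -0.46 (standard error 0.27, interval -1.07 to 0.15), or 0.725 times the control level. HPYD against control gave -0.42 (-1.03 to 0.19), and here all 3 HPYD arrays lay below the control arrays. HPYD against model gave 0.04 (-0.57 to 0.65), with 0.25 without HPYD 3, -0.25 without Model 2 and -0.037 without both. Without Model 2 and HPYD 3, which have the raised granule neuron markers, the fold changes against control were -0.18 for the model group and -0.21 for the HPYD group. With the granule neuron level of each array, the mean of the 6 markers, as a covariate they were -0.05 and -0.05. That level was higher in every model array than in every control array, so in model against control it runs partly with the group. Without the 3 arrays with raised muscle markers, which leaves Model 3 alone in its group and takes it to vary like the other groups, model against control gave -0.08, while HPYD gave -0.53 against control and -0.45 against model.

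Mark1 phosphorylates tau in the repeats that bind microtubules, and Dyrk1a, a kinase raised in Down syndrome by its extra gene copy, primes tau for the glycogen synthase kinases. Mark1 was 9.51, 9.29 and 9.50 in the control arrays, 9.16, 8.93 and 9.38 in the model arrays, and 9.26, 9.19 and 8.95 in the HPYD arrays. All HPYD arrays lay below the control arrays, while Model 3 lay within the range of the control arrays, and Model 2 and HPYD 3 were again the lowest. Mark1 had a log2 fold change of -0.30 for HPYD against control (standard error 0.13, interval -0.60 to -0.0009, adjusted p = 0.860 from limma, with an unadjusted p of 0.0495) and -0.28 for model against control (standard error 0.13, interval -0.58 to 0.02, adjusted p = 0.859). HPYD against model gave -0.02 (-0.32 to 0.28). Without HPYD 3, HPYD against control was -0.21 with a p of 0.162, and without Model 2 and HPYD 3, model against control was -0.17 with a p of 0.145. Without the 3 arrays with raised muscle markers, which leaves Model 3 alone in its group, model against control was -0.05 and HPYD against control -0.33.

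Dyrk1a was 11.19, 11.16 and 11.20 in the control arrays, 11.12, 11.23 and 11.14 in the model arrays, and 11.11, 11.15 and 11.19 in the HPYD arrays. The groups overlapped, and Model 2 was here the highest array. Its log2 fold changes were -0.02, -0.01 and -0.03 for model against control, HPYD against model and HPYD against control, with intervals within -0.15 and 0.11. Dyrk1a was the only gene of the set with 2 probe sets. The other, dimmer probe set ran from 8.60 to 8.86, with HPYD 3 highest, and the mean of both gave HPYD fold changes of the opposite sign (0.01 against model and 0.0058 against control).

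Ppp2ca, the catalytic subunit of protein phosphatase 2A, was 12.20, 12.26 and 12.23 in the control arrays, 12.26, 12.22 and 12.23 in the model arrays, and 12.32, 12.12 and 12.14 in the HPYD arrays. As for Gsk3b, HPYD 1 was the highest array and the HPYD arrays were the most spread (SD 0.11, against 0.03 and 0.02). Fold changes in log2 units were 0.01 in model against control (-0.14 to 0.16), -0.04 for HPYD against model (-0.19 to 0.10) and -0.04 for HPYD against control (-0.18 to 0.11).

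**Figure D2:**
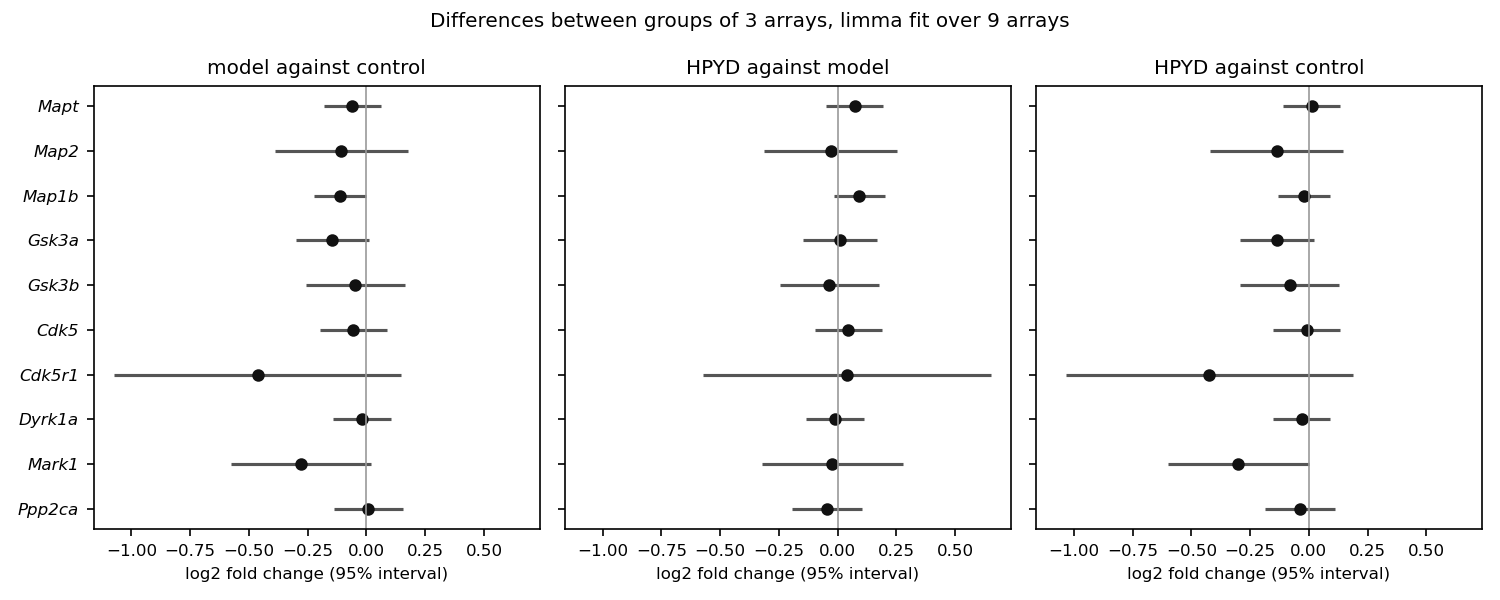
Log2 fold change of each gene (horizontal axis) with its 95% interval from limma for the 3 comparisons, each between groups of 3 arrays. The intervals exclude 0 for Map1b in model against control and for Mark1 in HPYD against control, both before adjustment, and the interval of Cdk5r1 is the widest in every comparison.

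Read as a set, the 10 genes stood beside these counts over all genes. In model against control, limma called 0 of 19938 genes at an adjusted p under 0.05 (0%), and 980 genes (4.92%) had an unadjusted p under 0.05, of which Map1b was 1. The one-way analysis of variance of the methods, followed by pairwise testing, also called 0 genes after adjustment and had 287 at an unadjusted p under 0.05. The model arrays lay wholly below the control arrays for 934 genes (4.68%), among them Map2, Map1b and Gsk3a, or 3 of the 10. The mean was lower in the model group for 9 of the 10 genes and for 55% of all genes. The median log2 fold change was -0.08 over the 10 genes and -0.01 over all genes, and adjusted p values of the 10 ran from 0.859 to 0.994.

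In HPYD against model, limma called 0 genes (0%) and 393 genes (1.97%) had an unadjusted p under 0.05, with none of the 10 among them. The methods' test called 0 genes after adjustment and had 137 before it. The HPYD arrays lay wholly above the model arrays for 447 genes (2.24%), with Map1b as the only gene of the set. The mean was higher in the HPYD group for 5 of the 10 genes and for 57.5% of all genes, and the median was -0.0014 over the 10 and 0.02 over all genes. The adjusted p was 1 for each of the 10.

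In HPYD against control, limma called 0 genes (0%), 646 genes (3.24%) had an unadjusted p under 0.05, and Mark1 was the only one of the 10. The methods' test called 0 genes after adjustment and had 241 before it. The HPYD arrays lay wholly below the control arrays for 946 genes (4.74%), among them Gsk3a, Cdk5r1 and Mark1. The mean was lower in the HPYD group for 9 of the 10 genes and for 45.7% of all genes, and the median was -0.06 over the 10 and 0.01 over all genes, and adjusted p values of the 10 ran from 0.860 to 0.978. The comparisons against control share the control arrays.

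The genes that were low in Model 2 and HPYD 3 were then set beside the marker genes of brain regions. Cdk5r1, Mark1 and Map2, 3 of the 10 genes, were lower in both arrays than in the other 7, against 14.1% of all genes. None of the 10 was higher in both, against 14.2% of all genes. Of the cortex and hippocampus markers, 3 of 4 were lower in both arrays, Neurod6 among them at 7.05 and 6.77 against 8.49 to 9.37 in the others, and 6 of 6 granule neuron markers were higher. The list of 10 brain neuron markers was at -0.26 and -0.25 relative to the control mean there. The differences of Cdk5r1, Mark1 and Map2 without these arrays, and with the granule neuron level as a covariate, are plotted beside those over all arrays.

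**Figure D3:**
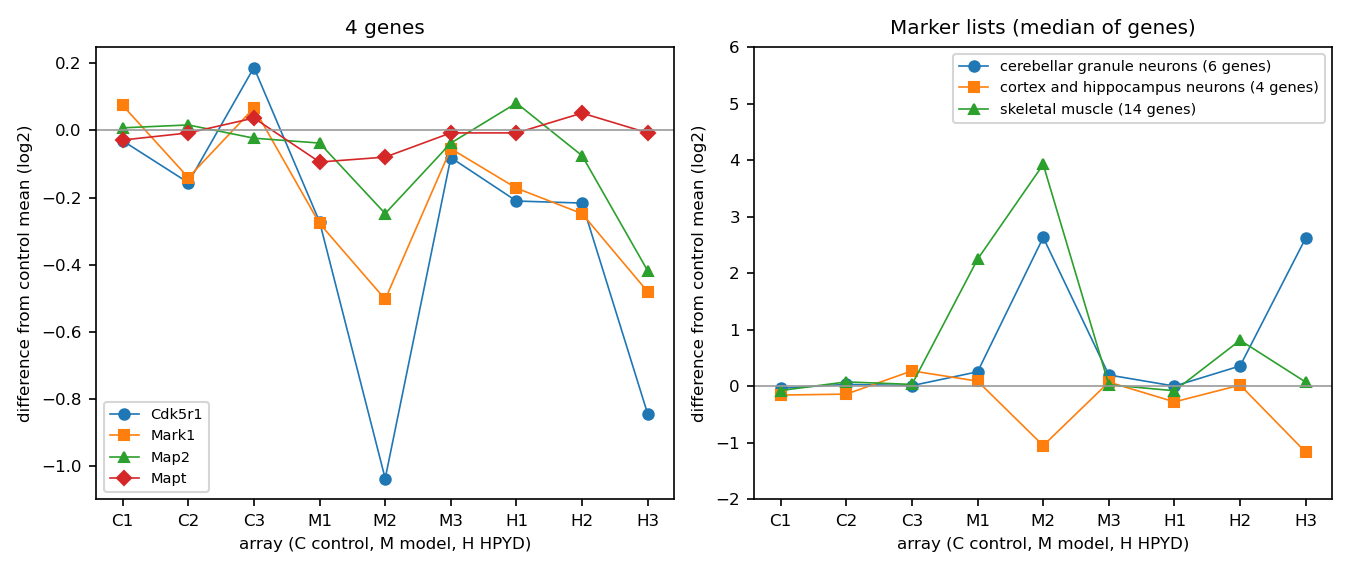
Difference from the control mean in log2 units (vertical axes) for Cdk5r1, Mark1, Map2 and Mapt (left) and for the median of 3 marker lists (right) in each array, with lines only to guide the eye and different vertical scales. Cdk5r1, Mark1 and Map2 are lowest in M2 and H3, where the granule neuron list is 2.63 and 2.62 above the control mean, while Mapt stays between -0.09 and 0.05.

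**Figure D4:**
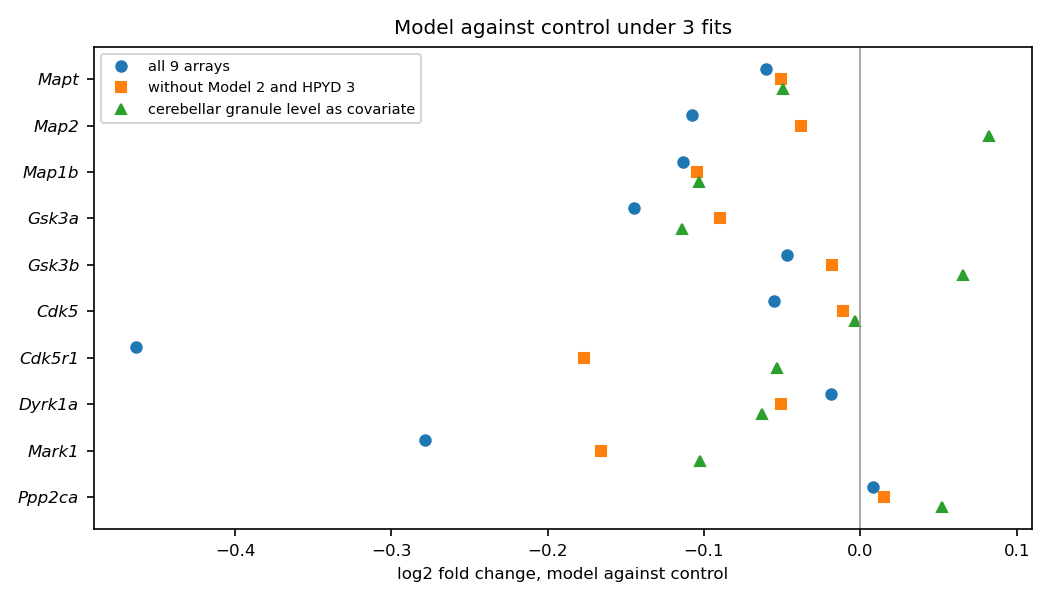
Log2 fold change for model against control (horizontal axis) of the 10 genes over all 9 arrays, without Model 2 and HPYD 3, and with the granule neuron level as a covariate, the last 2 fits chosen after the data were seen. The covariate, a mean of 6 markers, was higher in every model array than in every control array. Cdk5r1 goes from -0.46 to -0.18 and -0.05, Map2 from -0.11 to -0.04 and 0.08, and Map1b stays between -0.11 and -0.10.

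Some of the 10 genes tracked each other over the 9 arrays, which is given here as a description, since the arrays share groups and the tissue differences above. Cdk5r1 and Mark1 had a Pearson r of 0.94 over 9 arrays and 0.89 over the 7 without Model 2 and HPYD 3. Map2 and Cdk5r1 had 0.82, and -0.05 over those 7, and Map2 and Mark1 had 0.76, and 0.15 over those 7. Gsk3b and Ppp2ca had 0.83 and 0.85, and Map2 and Gsk3b 0.86 and 0.79.

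The genes with the most similar pattern were sought among 9959 genes above the median mean level. For Mapt they were Ap1b1, Pmm1 and Mex3d, with a Pearson r of 0.92, 0.91 and 0.91 over 9 arrays. The nearest gene was Cmss1 for Map2 (0.99), Prdm4 for Map1b (0.94), Manbal for Gsk3a (0.96) and Nol8 for Gsk3b (0.97). It was Tmem185b for Cdk5 (0.95), Adgrl1 for Cdk5r1 (0.998), Tiam1 for Dyrk1a (0.94), Cfap20dc for Mark1 (0.99) and Brix1 for Ppp2ca (0.98). Adgrl1 was 11.42, 11.37 and 11.59 in the control arrays, 11.28, 10.86 and 11.40 in the model arrays and 11.32, 11.31 and 10.98 under HPYD, an order of arrays shared with Cdk5r1. The r of Adgrl1 with Cdk5r1 was 0.995 over the 7 arrays without Model 2 and HPYD 3.

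Other genes of tau biology were read from 5 lists, and none of their measured members passed the adjusted threshold in any comparison. The list of 36 other tau kinases also holds Cdk5r2, which is an activator of Cdk5 and not a kinase. Within this list, the mean was below that of the control group for 27 in the model mice and for 28 in the HPYD mice. The shares over all genes were 55% and 45.7%. The medians over the list were -0.07 and -0.11 in log2 units. Cdk1, the kinase of mitosis and a gene that the study picked from these arrays, was 5.97, 6.04 and 5.71 in the control arrays, 6.99, 7.66 and 6.20 in the model arrays, and 5.95, 6.67 and 6.20 in the HPYD arrays. It was highest in Model 1, Model 2 and HPYD 2, the arrays with raised muscle markers, where the granulocyte list was also 3.43, 3.66 and 2.77 above the control mean. Its log2 fold change for model against control was 1.05 (standard error 0.34, adjusted p = 0.859 from limma). Without those 3 arrays, which leaves Model 3 alone in its group, it was 0.29. Dyrk1b, Syk and Prkaa2 had log2 fold changes of -0.16, 0.56 and -0.23 for model against control, none with an unadjusted p under 0.05. Without Model 2 these values were -0.18, 0.43 and -0.13. They were -0.13, 0.26 and -0.042 without the 3 arrays with raised muscle markers, again with Model 3 alone in its group.

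Among 26 tau phosphatases and their regulators, 19 were lower on average in model than in control mice and 23 in HPYD than in control mice. The shares over all genes were 55% and 45.7%. The medians over the list were -0.09 and -0.10. Ppp1ca, a catalytic subunit of protein phosphatase 1, was 11.38, 11.28 and 11.42 in the control arrays, 11.15, 10.99 and 11.24 in the model arrays, and 11.14, 11.13 and 10.81 in the HPYD arrays. All model arrays and all arrays labelled HPYD lay below the control arrays, HPYD 3 lowest. Over all genes, 4.68% and 4.74% had these patterns, and Ppp1ca was named by its F-test p over these same groups. The log2 fold change for HPYD against control was -0.33 (standard error 0.11, adjusted p = 0.860 from limma), or -0.22 without HPYD 3. Cip2a, an inhibitor of protein phosphatase 2A, was 5.63 ± 0.10 (SD, n = 3) in the model arrays and 5.42 ± 0.11 in the HPYD arrays, below the array medians of 6.69 to 6.82. Its log2 fold change for HPYD against model was -0.21, with a p of 0.0201 and an adjusted p of 1 from limma. The unadjusted p was 0.0682, 0.0625 and 0.0654 without Model 2, HPYD 2 or HPYD 3. Model 2 was its highest array and HPYD 3 its lowest, and without both the fold change was -0.13 with a p of 0.150 from limma. Without the 3 arrays with raised muscle markers, which leaves Model 3 alone in its group, the fold change was -0.098. Ppp2r2b and Ppp2r5e, regulatory subunits of protein phosphatase 2A, had fold changes of -0.24 and -0.09 for model against control, which were -0.079 and -0.03 without Model 2, and the lowest values were those of Model 2 and HPYD 3 for Ppp2r2b and of HPYD 2 and HPYD 3 for Ppp2r5e.

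Of 32 other microtubule-associated proteins, 24 were lower on average in model than in control mice (median -0.07), against 55% of all genes. In HPYD against model, 20 were higher on average (median 0.01), against 57.5% of all genes. None of the 32 had an unadjusted p under 0.05 in any comparison. Map4, the widely expressed relative of tau, was 10.78 ± 0.12 (SD, n = 3) in the control, 11.02 ± 0.18 in the model and 11.02 ± 0.12 in the HPYD arrays. Stmn1, which takes up free tubulin, was 12.72 ± 0.03, 12.49 ± 0.21 and 12.48 ± 0.19, with Model 2 and HPYD 3 lowest. Map6, which stabilises microtubules, was 9.89 ± 0.03, 9.77 ± 0.07 and 9.84 ± 0.02, and Dclk2 was 9.01 ± 0.07, 8.83 ± 0.11 and 8.92 ± 0.10. These genes were named by their F-test p over these same groups. For all but Map4 the model arrays lay wholly below the control arrays, as they did for 4 of the 32 and for 4.68% of all genes. Without Model 2, the log2 fold change for model against control went from -0.23 to -0.11 for Stmn1, from 0.24 to 0.14 for Map4, from -0.12 to -0.079 for Map6 and from -0.18 to -0.13 for Dclk2.

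Among 13 neuronal tubulins and neurofilaments, 7 were lower on average in model than in control mice (median -0.0013), against 55% of all genes. Tubb3, the β-tubulin of neurons, was 10.06, 10.18 and 10.11 in the control arrays, 9.95, 9.88 and 9.81 in the model arrays, and 10.16, 10.04 and 10.32 in the HPYD arrays. As for Map1b, the model arrays lay below all control and all HPYD arrays, but Tubb3 was named by its F-test p over these same groups. Over all genes, 4.68% had the first pattern and 2.24% the second. Tubb3 had a log2 fold change of -0.24 in model against control (standard error 0.08, adjusted p = 0.859 from limma) and 0.30 for HPYD against model (standard error 0.08, adjusted p = 1), and both share the model arrays. Without HPYD 3, its highest array, HPYD against model was 0.22. Tubb4a and Tubb6 had fold changes of 0.10 and 0.13 for model against control, or 0.045 and 0.16 without Model 2. Nefh, the heavy neurofilament chain, was highest in Model 2 and HPYD 3 at 10.40 and 10.34, and its fold change of 0.30 for model against control became -0.01 without these arrays.

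Among 22 genes of tau turnover and modification, 12 were lower on average in model than in control mice (median -0.01), against 55% of all genes. Lgmn, the asparagine endopeptidase that cuts tau, was 10.52, 10.52 and 10.67 in the control arrays, 10.72, 10.89 and 10.86 in the model arrays, and 10.76, 10.79 and 10.76 in the HPYD arrays. All model arrays and all arrays labelled HPYD lay above the control arrays, as they did for 4.83% and 4.78% of all genes. Lgmn was named by its F-test p over these same groups. Its log2 fold change was 0.25 in model against control (standard error 0.07, adjusted p = 0.859 from limma). For HPYD against control it was 0.20, or 0.21 without HPYD 3. Hdac6, which deacetylates tubulin and binds tau, was 9.05, 8.85 and 9.01 in the control arrays, 8.61, 8.62 and 8.82 in the model arrays, and 8.69, 8.82 and 8.78 in the HPYD arrays. All model arrays and all arrays labelled HPYD lay below the control arrays, as they did for 4.68% and 4.74% of all genes. Hdac6 was named in the same way as Lgmn, and its fold changes against control were -0.29 and -0.21. Without HPYD 3 that of the HPYD group was -0.21. Without the 3 arrays with raised muscle markers, which leaves Model 3 alone in its group, that of the model group was -0.15. The list of 5 microglia markers was at 0.20, -0.43 and 0.29 in the model arrays, at 0.23, 0.20 and -0.71 in the HPYD arrays and between -0.09 and 0.10 in the control arrays, and its part in these differences was not tested. Oga, which removes the sugar O-GlcNAc from tau, had a fold change of -0.15 for model against control, or -0.042 without the 3 arrays with raised muscle markers, and Bin1, a membrane-bending protein that binds tau, 0.12.

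**Figure D5:**
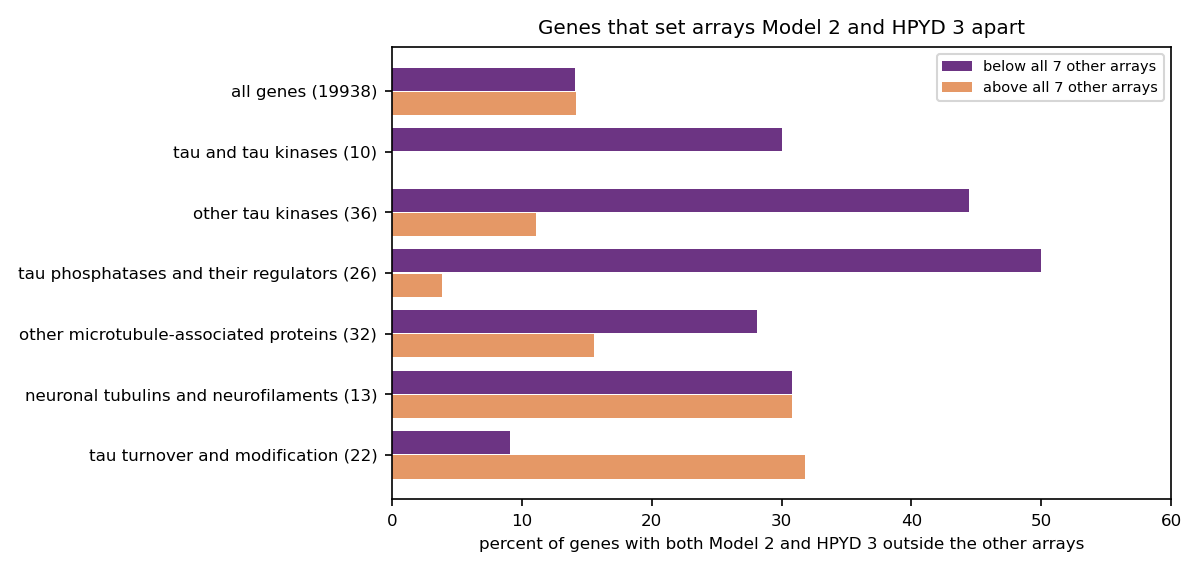
Share of genes in each list (horizontal axis, percent; number of measured genes in brackets) for which both Model 2 and HPYD 3 lay below or above all 7 other arrays. It was 44.4% below for the other tau kinases and 50% for the phosphatases and their regulators, against 14.1% of all genes. It was 31.8% above for tau turnover and modification, against 14.2% of all genes. For neuronal tubulins and neurofilaments it was 30.8% below and 30.8% above.

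The arrays Model 2 and HPYD 3 also set many genes of these lists apart. Both were below the other 7 arrays for 16 of 36 other tau kinases, 13 of 26 phosphatases and regulators and 9 of 32 microtubule-associated proteins. They were also below for 4 of 13 tubulins and neurofilaments and 2 of 22 genes of turnover and modification, against 14.1% of all genes. For the same lists in order, both were above the other 7 arrays for 4, 1, 5, 4 and 7 genes, against 14.2% of all genes. Without these 2 arrays limma called 15 genes in model against control and 18 in HPYD against control, with none of the 10 genes among them.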

How the data were processed

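Brain RNA of 9 samples, 3 in each of 3 groups given by the labels, was hybridised to GeneChip Mouse Gene 1.0 ST arrays. The authors deposited log2 values for 35556 probe sets. The submitters' processing notes name MAS5, while the background correction and normalization behind them remain unstated. The methods name RNeasy and labelled cDNA, and the labels Trizol and biotinylated cRNA.

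The values were used as deposited, with array medians from 6.69 to 6.82. Probe sets with a single symbol in the platform annotation were kept (21789), 1621 with several symbols and 12146 unnamed here were left out, and the highest mean was kept for 999 genes with several. Identifiers were matched to RefSeq for 21698. limma 3.58.1 in R 4.3.3 fitted the 3 groups together over 19938 genes, with Benjamini-Hochberg adjustment and a threshold of 0.05, and was tested on simulated data. The number of columns not used was 0. Genes were named by a rule: the 10 genes, App, Prnp, Xist and Kdm5d as checks of the labels, from each of 5 lists the 4 genes with the smallest F-test p, and the genes of most similar pattern (3 for Mapt and 1 for the others). Gabra6, Neurod6 and Snap25 were named as markers after their values were seen. Members and lists were chosen with earlier results of these data known. The number of arrays limits the precision. Alternatives were other scalings, filters, variance models, array weights, only the groups compared, a replicate block, the mean of probe sets, the methods' test, and leaving out arrays.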

Additional observations from a re-analysis of the deposited data

How the results depend on the processing

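None of the 630 fold changes of the 10 genes under the alternatives passed the adjusted threshold, with a smallest adjusted p of 0.349, and 58 of them changed sign. The 523 refitted values of the other named genes had 7 changes of sign. The causes were not tested. The last 3 alternatives below, which leave out Model 2 and HPYD 3, leave out Model 1, Model 2 and HPYD 2, or add a covariate, were chosen after seeing the data. The fit without Model 1, Model 2 and HPYD 2 leaves Model 3 alone in its group. The median fold change over all genes in model against control was -0.01 as deposited, -0.06 with arrays shifted to the same median and -0.02 after quantile normalization.

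With all arrays shifted to the same median, the log2 fold change turned to -0.036 for Ppp2ca in model against control, and -0.039 for Mapt in HPYD against control. With quantile normalization, the log2 fold change turned to -0.017 for Ppp2ca in model against control, and 0.015 for Map2, 0.0077 for Dyrk1a and 0 for Ppp2ca in HPYD against model. With array weights, the log2 fold change turned to -0.014 for Gsk3a, -0.063 for Cdk5r1 and 0.0049 for Dyrk1a in HPYD against model, and 0.0095 for Cdk5 in HPYD against control. With the mean of a gene's probe sets, the log2 fold change turned to 0.015 for Dyrk1a in HPYD against model, and 0.0058 for Dyrk1a in HPYD against control. Without Model 2 and HPYD 3, the log2 fold change turned to -0.013 for Nefh in model against control, and 0.041 for Map2, -0.046 for Gsk3a, 0.012 for Gsk3b, -0.037 for Cdk5r1 and 0.0005 for Dyrk1a in HPYD against model, and 0.0028 for Map2 and 0.0003 for Cdk5 in HPYD against control. Without Model 1, Model 2 and HPYD 2, the log2 fold change turned to 0.0027 for Gsk3b, -0.0027 for Ppp2ca, -0.0028 for Cip2a and -0.015 for Nefh in model against control, and 0 for Mapt, -0.071 for Gsk3a, -0.45 for Cdk5r1, 0.0065 for Dyrk1a and 0.004 for Ppp2ca in HPYD against model, and -0.0077 for Mapt, 0.0067 for Cdk5 and 0.0013 for Ppp2ca in HPYD against control. With the granule neuron level as a covariate, the log2 fold change turned to 0.083 for Map2, 0.065 for Gsk3b, 0.0062 for Ppp2r2b, 0.075 for Ppp2r5e and -0.12 for Nefh in model against control, and 0.036 for Map2, 0.021 for Gsk3b, 0.038 for Cdk5 and 0.0038 for Ppp2ca in HPYD against control.

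Leaving out each array in turn, the fold changes in model against control that turned ran over Ppp2ca -0.0052 to 0.023, Dyrk1a -0.051 to 0.0021, Nefh -0.013 to 0.45. Likewise, those in HPYD against control that turned ran over Mapt -0.0077 to 0.0303, Cdk5 -0.035 to 0.023, Ppp2ca -0.10 to 0.0013, Map2 -0.25 to 0.0028. In HPYD against model those that turned ran over Map2 -0.14 to 0.11, Gsk3a -0.045 to 0.0401, Cdk5r1 -0.25 to 0.25, Dyrk1a -0.033 to 0.019, Mark1 -0.13 to 0.0899, Gsk3b -0.14 to 0.041.

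Genes called by limma in model against control were 5 with only the groups compared, 15 without Model 2 and HPYD 3, and 0 to 7 on leaving out each array in turn, the 7 without HPYD 3. In HPYD against control they were 18 without Model 2 and HPYD 3 and 0 to 8 on leaving out each array, the 8 again without HPYD 3. In HPYD against model they were 0 in every fit run.

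In model against control, 1 of the 10 genes had an unadjusted p under 0.05 as reported. This count was 0 after quantile normalization, with only the groups compared, with the replicate block and at the stricter threshold of 0.01. It was also 0 without Model 2 and HPYD 3 and with the covariate, and it was 2 with the trended robust variance. On leaving out each array it was 0 to 2. Among these fits the 2 came without Model 3, where 1929 of all genes had an unadjusted p under 0.05 from limma, against 980 with all arrays. In HPYD against control, also 1 as reported, the count was 0 after dropping the dimmest 33.3% of genes, with the replicate block and by the methods' test. It was also 0 at the threshold of 0.01, without Model 2 and HPYD 3 and with the covariate. On leaving out each array it was 0 to 2, the 2 without HPYD 1, where 1807 of all genes were under 0.05, against 646 with all arrays. In HPYD against model, 0 as reported, the count was 1 with the trended robust variance and 1 by the methods' test. Of the 21 alternatives, Map1b was under 0.05 in 7 for model against control and Mark1 in 11 for HPYD against control.

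The genes of the 10 whose groups did not overlap were 3 to 6 on leaving out each array in model against control, with 5 without Control 2 and 6 without Model 3. In HPYD against control they were 5 with arrays shifted to the same median and 3 to 6 on leaving out each array, with 6 without HPYD 1. In HPYD against model they were 0 with that shift, 2 after quantile normalization, 4 without the 3 arrays with raised muscle genes and 1 to 3 on leaving out each array, with 3 without HPYD 1.

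The labels do not say whether replicate numbers pair the samples. Deviations of same-numbered arrays from their group means correlated between -0.32 and 0.18 in 9 pairs and over 0.1 in 2. These deviations include the tissue differences above, so they cannot show whether samples were paired. Of the arrays with different numbers, Model 1 and HPYD 2, Model 2 and HPYD 3, and Model 3 and HPYD 1 correlated at 0.59 each. With the replicate block, 0 genes were called in each comparison, and 930, 334 and 520 genes had an unadjusted p under 0.05 in model against control, HPYD against model and HPYD against control, against 980, 393 and 646 without it.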

Other observations

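Some deposited values were the same on several arrays to the last digit. Mapt had a single value, 9.68, in Control 2, Model 3, HPYD 1 and HPYD 3, and Map2, Map1b and Cdk5 each had a value shared by 2 arrays. Of all 19938 genes, 48.5% had a value shared by 2 or more arrays and 11.2% by 4 or more, against 40% and 10% of the 10 genes. The cause was not tested.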
